A study of Mus musculus with 8 samples.

Results

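The collagen genes were compared between first molars of Wdr72-/- (KO) and wild-type (WT) mouse pups. They were chosen by name, as the protein-coding genes whose symbol is Col, a number, a and a number. Col17a1, a collagen of epithelial adhesion complexes, was left out. This gave 43 of the 54532 genes in the deposited table. They were read by class: 8 fibrillar collagens, 7 cartilage collagens, 9 basement membrane collagens, 6 collagen VI chains, 6 FACIT collagens (fibril-associated collagens with interrupted triple helices) and 7 others. There were 4 KO libraries (KO 1, 3, 4 and 5) from Wdr72-/- mice and 4 WT libraries (WT 2, 3, 4 and 5), all C57BL/6. All were labelled P12 for age, while the dissection protocol names P13 pups. Both groups had their pulp removed from the molars, and what remained was homogenised whole, so the RNA was not limited to 1 cell type. The labels call the material ameloblasts, the enamel-forming epithelial cells, and do not say which part of Wdr72 is missing or whether a library came from 1 pup or a pool. All p-values therefore reflect the spread among these libraries alone, which may be technical.

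The libraries held 17084475 to 21887462 counted reads. Wdr72, the targeted gene, had 102, 37.8, 24.9 and 15.8 CPM (reads scaled by the TMM-adjusted total of the library) in KO 1, 3, 4 and 5, against 173, 245, 327 and 227 CPM in WT 2, 3, 4 and 5. All KO libraries lay below all WT libraries, and KO 1 kept the most. Ambn, an enamel matrix gene, averaged 35754 ± 5586 CPM in KO and 38662 ± 12366 CPM in WT, so a defining gene of the labelled cell type was abundant in both groups (SD, n = 4 each). Dspp, which odontoblasts use to make dentin, averaged 13052 ± 4135 CPM in KO and 13685 ± 5138 CPM in WT, so a defining gene of dentin-forming cells was abundant as well (SD, n = 4 each).

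Collagens are secreted proteins of the extracellular matrix whose chains wind into a triple helix. Fibrillar collagens form the fibres of dentin, bone and dental ligament, and collagen I is the main one in mineralised tissue. Collagen IV forms the sheets on which epithelia rest, collagen VI makes beaded filaments around mesenchymal cells, and FACIT collagens sit on the surface of fibrils. Mature enamel itself is known to hold almost no collagen, and ameloblasts are epithelial.

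Most of the tested collagens had a positive log2 fold change, though no member passed the threshold used to call genes. Of the 43 genes, 41 passed the filter on low counts, and Col6a6 and Col19a1 did not. By edgeR's quasi-likelihood test, 0 of the 41 had an adjusted p under 0.05 over all genes, where 0.0309% of 16205 tested genes did. At an unadjusted p of 0.05, 18 collagens (43.9%) were higher and 3 (7.32%) were lower in KO, beside 8.7% and 6.98% of all tested genes. In 12 collagens (29.3%) every KO library was above every WT library, and in 1 every KO library was below, beside 5.5% and 5.44% of all tested genes. The log2 fold change was positive in 33 and negative in 8 of the 41 (28 to 34 positive over the alternatives run), beside 53.1% positive of all tested genes. The median was 0.40, while the median over all tested genes was 0.021. In these bulk samples, a changed number of cells of a type and a changed amount of RNA per cell cannot be told apart. DESeq2 called 12 collagens higher and 0 lower at the same adjusted threshold, beside 1.64% and 0.816% of the genes it tested. Limma voom with quality weights called 18 higher and 0 lower, beside 4.29% and 2.28% of its genes. The call thus depended on the tool.

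**Figure D1:**
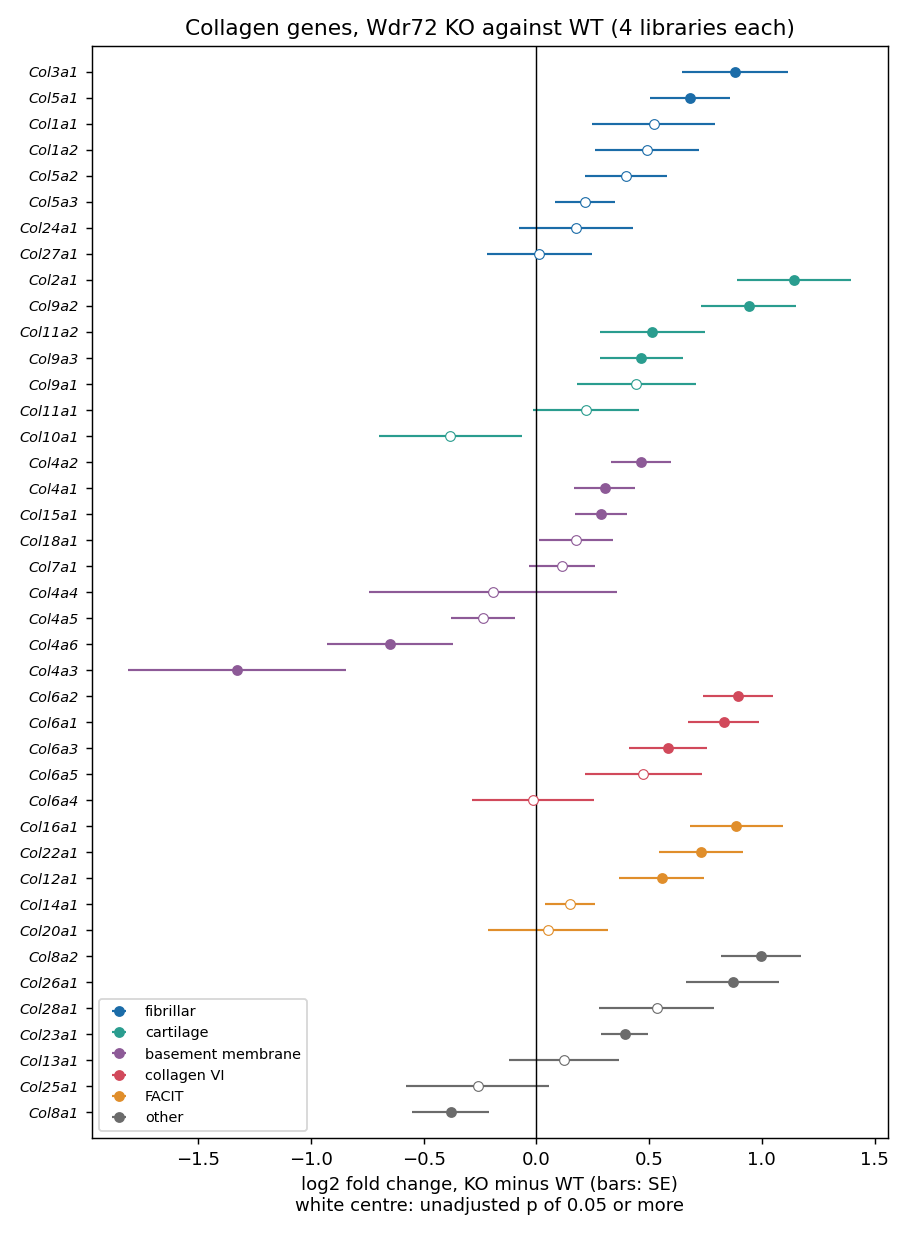
Log2 fold change of each of the 41 tested collagens, KO minus WT, with bars for the SE, grouped and coloured by class; a white centre marks an unadjusted p of 0.05 or more. The 33 positive values lie right of 0, and the lowest value is that of Col4a3.

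WT 5 stood apart from the other WT libraries in its collagens. The 43 genes took 6.57, 5.79, 7.39 and 4.70% of all reads in KO 1, 3, 4 and 5, against 3.94, 3.48, 3.59 and 6.63% in WT 2, 3, 4 and 5. WT 5 therefore lay among the KO libraries, while the other WT libraries were below each KO library. It was the highest WT library in 30 of the 41 tested collagens, among them 7 of 8 fibrillar and 9 of 9 basement membrane genes. Without WT 5 the median log2 fold change of the collagens was 0.50, with 24 higher and 0 lower at an unadjusted p under 0.05, where 8.95% of all tested genes were higher. All KO libraries were then above all WT libraries in 23 collagens, beside 9.88% of all tested genes. In KO, the highest library was KO 1 in 16 genes, KO 5 in 11, KO 4 in 10 and KO 3 in 4. The tested collagens had a median GC content of 55.2%, against 49.7% for all tested genes, and across 16194 genes of the same library the deviation from the mean had a Spearman correlation with GC content of 0.31, -0.051, 0.023 and 0.37 in KO 1, 3, 4 and 5, against -0.21, -0.16, -0.42 and -0.21 in WT 2, 3, 4 and 5. Xist, an RNA of the inactive X chromosome, averaged 243 ± 81.4 CPM in KO and 637 ± 269 CPM in WT (SD, n = 4 each), with an edgeR adjusted p of 0.12. With Xist as a covariate the median log2 fold change was 0.97 for collagen VI, against 0.58 without it. For basement membrane collagens it was 0.30, against 0.11, and for the class of other collagens 0.32, against 0.39. It was 0.64 for fibrillar, 0.52 for cartilage and 0.81 for FACIT collagens, against 0.44, 0.47 and 0.56. At an unadjusted p under 0.05, 13 collagens were higher with the covariate, against 18 without it. The shares of all tested genes were 3.05% and 8.7%. Beyond these fits the part of GC content and of Xist in the collagen values was not tested. With an offset for GC content and length, the collagen median log2 fold change was 0.28, with 17 higher and 3 lower at an unadjusted p under 0.05, where 7.12% of all tested genes were higher.

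**Figure D2:**
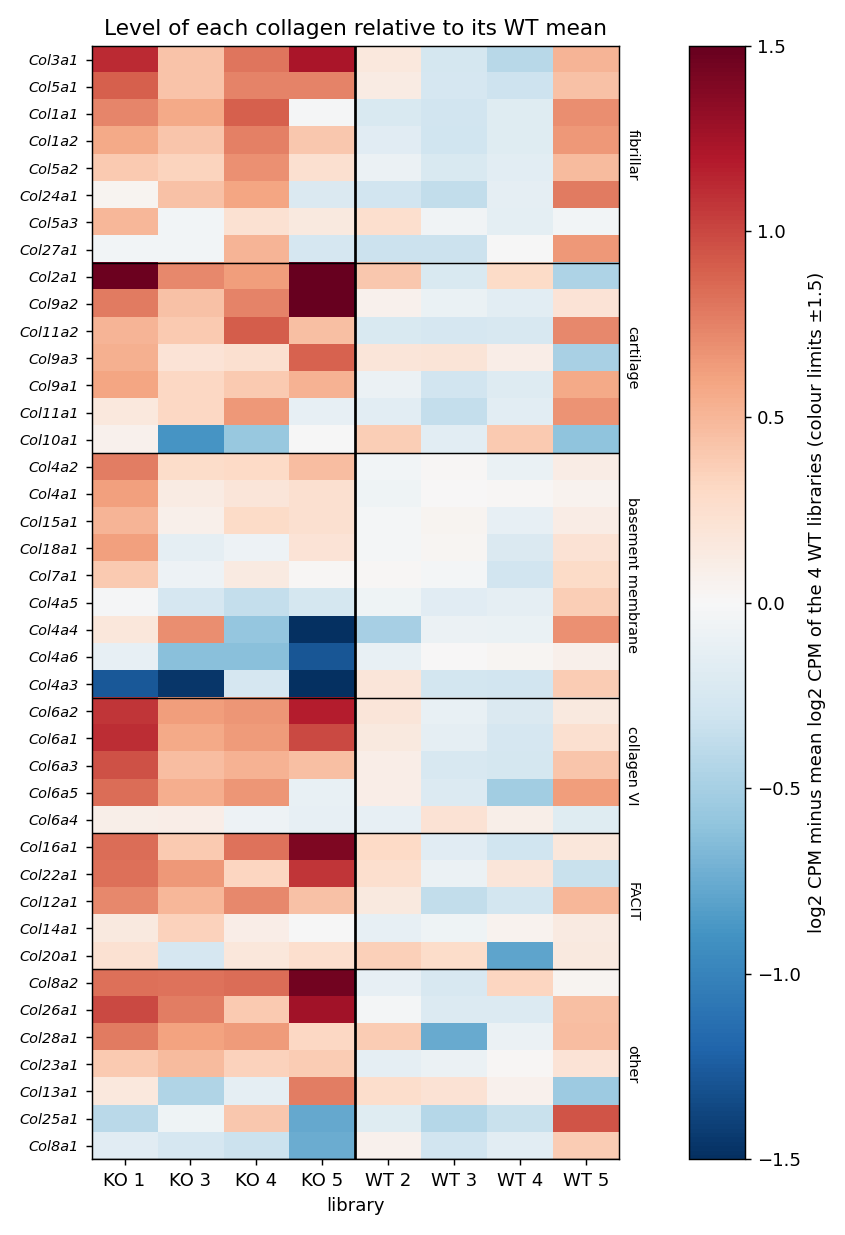
Heat map of log2 CPM in each library (columns, KO left and WT right) minus the mean log2 CPM of the WT libraries, for the 41 tested collagens (rows, by class); red is above the WT mean and blue is below. Red fills most of the KO columns, WT 5 is also red in most fibrillar genes, and Col4a3 and Col4a6 are blue in KO.

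Collagen VI held 2 of the 3 smallest p-values of the family. It builds a filament network from chains encoded by Col6a1, Col6a2 and one of several longer chains such as Col6a3. Of its 5 tested members, 4 had a positive log2 fold change, 3 were higher at an unadjusted p under 0.05 (60%, beside 8.7% of all tested genes), and the median was 0.58. Col6a1 (chromosome 10, 76708792 to 76726168) and Col6a2 (chromosome 10, 76595762 to 76623630) lie on the same strand with 85161 bases between them. Col6a1 had 276, 189, 198 and 254 CPM in KO 1, 3, 4 and 5, against 141, 116, 107 and 151 CPM in WT 2, 3, 4 and 5. The Col6a1 log2 fold change was 0.83 ± 0.16 SE (unadjusted p = 0.00022, edgeR adjusted p = 0.080). Col6a2 had 228, 168, 171 and 245 CPM in KO, against 123, 100.4, 93.1 and 120.0 CPM in WT, in the same order of libraries. The Col6a2 log2 fold change was 0.89 ± 0.15 SE (unadjusted p = 9.2e-05, edgeR adjusted p = 0.073). For both genes each KO library exceeded every WT library, and KO 1 and KO 5 were the highest in both.

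Col6a3 (chromosome 1, 90765923 to 90843971) encodes the chain that completes the common collagen VI trimer. It had 183, 129.8, 135 and 129 CPM in KO, against 101, 79.8, 78.4 and 126 CPM in WT. The groups did not overlap, though KO 5 and WT 5 were close, and KO 1 stood well above the other KO libraries. For Col6a3 the log2 fold change was 0.58 ± 0.17 SE (unadjusted p = 0.0054, edgeR adjusted p = 0.17). Col6a5, an alternative long chain, had 11.5, 9.41, 10.2 and 5.93 CPM in KO and 6.87, 5.54, 4.41 and 9.95 CPM in WT, which overlapped, with a log2 fold change of 0.47 ± 0.26 SE, and of 0.73 without WT 5 or 0.31 without WT 4. Col6a4, another alternative chain, showed a log2 fold change of -0.014 ± 0.27 SE. It had 19, 23, 20 and 17 reads in KO, against 16, 24, 22 and 15 reads in WT. Col6a6 was below the filter, with 4, 6, 4 and 5 reads in KO, against 2, 0, 0 and 0 reads in WT. It was not tested.

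The promoters of Col6a1, Col6a2, Col8a2 and the pair Col4a1 and Col4a2 are shown. Col6a2, Col8a2 and Col6a1 had the 3 smallest p-values of the family, and Col4a1 and Col4a2 share part of their promoter. Each is the RefSeq window of 300 bases on GRCm38.p6, 250 before the annotated start and 50 from it on, written 5′ to 3′ on the strand of the gene. The motifs searched on both strands were the GC box GGGCGG, the CCAAT box and the TATA box TATAAA. Capitals mark matches in the first 3 sequences, and overlapping matches are counted separately. Of the 43 collagens, 34 had such a window in the table used here. Of the 2 windows of Col6a2, the printed one is that whose annotated start matches the start of the gene in the deposited table.
Col6a1, chr10:76725995-76726294, minus strand: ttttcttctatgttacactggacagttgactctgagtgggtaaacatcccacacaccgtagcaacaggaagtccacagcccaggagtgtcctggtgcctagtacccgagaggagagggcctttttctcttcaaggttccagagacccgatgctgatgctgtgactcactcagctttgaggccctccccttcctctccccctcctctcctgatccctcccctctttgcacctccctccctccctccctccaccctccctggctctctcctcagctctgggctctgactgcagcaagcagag
Col6a2, chr10:76623581-76623880, minus strand: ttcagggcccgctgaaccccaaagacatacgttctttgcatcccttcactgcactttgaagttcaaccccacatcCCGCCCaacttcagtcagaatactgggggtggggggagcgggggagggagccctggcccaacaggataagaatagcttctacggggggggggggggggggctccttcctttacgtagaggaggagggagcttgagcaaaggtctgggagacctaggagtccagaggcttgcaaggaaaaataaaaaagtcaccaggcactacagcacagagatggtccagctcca
Col8a2, chr4:126286544-126286843, plus strand: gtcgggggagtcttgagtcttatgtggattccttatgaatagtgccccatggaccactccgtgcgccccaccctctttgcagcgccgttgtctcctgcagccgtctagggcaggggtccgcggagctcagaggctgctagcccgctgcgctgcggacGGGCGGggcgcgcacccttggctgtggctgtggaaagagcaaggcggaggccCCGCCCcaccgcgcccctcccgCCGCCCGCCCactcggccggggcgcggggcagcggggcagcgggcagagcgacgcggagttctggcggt
Col4a2, chr8:11312555-11312854, plus strand: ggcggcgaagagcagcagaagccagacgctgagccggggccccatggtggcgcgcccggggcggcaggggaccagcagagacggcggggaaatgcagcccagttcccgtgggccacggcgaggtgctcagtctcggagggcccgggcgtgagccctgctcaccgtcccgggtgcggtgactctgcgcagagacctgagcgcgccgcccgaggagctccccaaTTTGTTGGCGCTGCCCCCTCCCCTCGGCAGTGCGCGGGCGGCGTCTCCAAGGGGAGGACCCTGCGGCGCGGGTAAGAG
In the Col4a2 sequence, capitals mark instead the 78 bases (chr8:11312777-11312854) that also belong to the promoter window of Col4a1, which is transcribed the other way. The Col6a1 window held no match, but its annotated start lies inside the gene as placed in the deposited table (76708792 to 76726168). The Col6a2 window held 1 GC box, starting at position -175 on the other strand, where 1 is the first base of the gene. The Col8a2 window held 4 GC boxes, 2 of which overlap on the other strand. The Col4a2 window held 3 GC boxes and 1 CCAAT box. Over all collagens, 23 of 37 windows (62.2%) held a GC box, 12 (32.4%) a CCAAT box and 4 (10.8%) a TATA box. Over all 32851 windows the shares were 35.7%, 37.4% and 13.6%. These matches describe letters in the windows and were not tested as binding sites.

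Fibrillar collagens took most of the collagen reads, and their values depended on WT 5. All 8 had a positive log2 fold change, with a median of 0.44, though Col27a1 was close to 0. Col27a1 was negative in 9 of the 23 alternatives run, among them -0.026 with library totals, and fell as low as -0.17. Of the class, 2 were higher at an unadjusted p under 0.05 (25%, beside 8.7% of all tested genes). The groups overlapped in each of the 8, and in 7 of them WT 5 was the highest WT library. Without WT 5 the median was 0.67, and 6 of 8 were higher at that threshold, against 5 of 8 without KO 5. The shares of all tested genes were then 8.95% and 7.97%. Col1a1 (chromosome 11, 94936224 to 94953042) and Col1a2 (chromosome 6, 4504814 to 4541544), the chains of collagen I, together made up 76.1% to 83.3% of the collagen reads in every library. Per length, Col1a1 averaged 4558 RPKM in KO and 3179 RPKM in WT. The same scale gave 1643 RPKM in KO and 1169.5 RPKM in WT for Col1a2.

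Col1a1 had 33092, 29531, 37326 and 19710.1 CPM in KO, against 17059, 16449, 17633 and 32304 CPM in WT. KO 5 and WT 5 crossed over, so that KO 5 lay near the other WT libraries and WT 5 near the other KO libraries. The Col1a1 log2 fold change was 0.52 ± 0.27 SE (unadjusted p = 0.081, edgeR adjusted p = 0.37), and without WT 5 the log2 fold change was 0.81. Col1a2 had 20681, 18746, 23687 and 18564 CPM in KO, against 12469, 11380.5, 12350.3 and 21929.7 CPM in WT. Here every KO library exceeded WT 2, 3 and 4, and WT 5 exceeded all KO libraries but KO 4. For Col1a2 the log2 fold change was 0.49 ± 0.23 SE (unadjusted p = 0.055, edgeR adjusted p = 0.33), and without WT 5 it was 0.76. Leaving out WT 5 thus moved both collagen I values by more than 1.5 times.

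Col3a1 and Col5a1 had the smallest p-values of the fibrillar class. Col3a1 (chromosome 1, 45311538 to 45349706) encodes collagen III, which forms thin fibres in soft connective tissue such as dental ligament. It had 4082, 2532, 3277 and 4396 CPM in KO, against 2103, 1565, 1409 and 2683 CPM in WT. Only WT 5 overlapped the KO range, exceeding KO 3. The Col3a1 log2 fold change was 0.88 ± 0.24 SE (unadjusted p = 0.0030, edgeR adjusted p = 0.15). Col5a1 (chromosome 2, 27886425 to 28039514) encodes a chain of collagen V, which starts collagen I fibrils and limits their width. It had 436, 315, 392 and 392 CPM in KO, against 254, 197, 189 and 317 CPM in WT, and KO 3 and WT 5 were almost level. The Col5a1 log2 fold change was 0.68 ± 0.18 SE (unadjusted p = 0.0023, edgeR adjusted p = 0.13). Col5a2, its partner chain, had 1668, 1608, 2052 and 1500.2 CPM in KO and 1196, 1085, 1142 and 1764 CPM in WT, with a log2 fold change of 0.40 ± 0.18 SE and WT 5 within the KO range. Of the remaining fibrillar genes, Col5a3 showed a log2 fold change of 0.22 ± 0.13 SE, Col24a1 of 0.17 ± 0.25 SE and Col27a1 of 0.014 ± 0.23 SE.

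**Figure D3:**
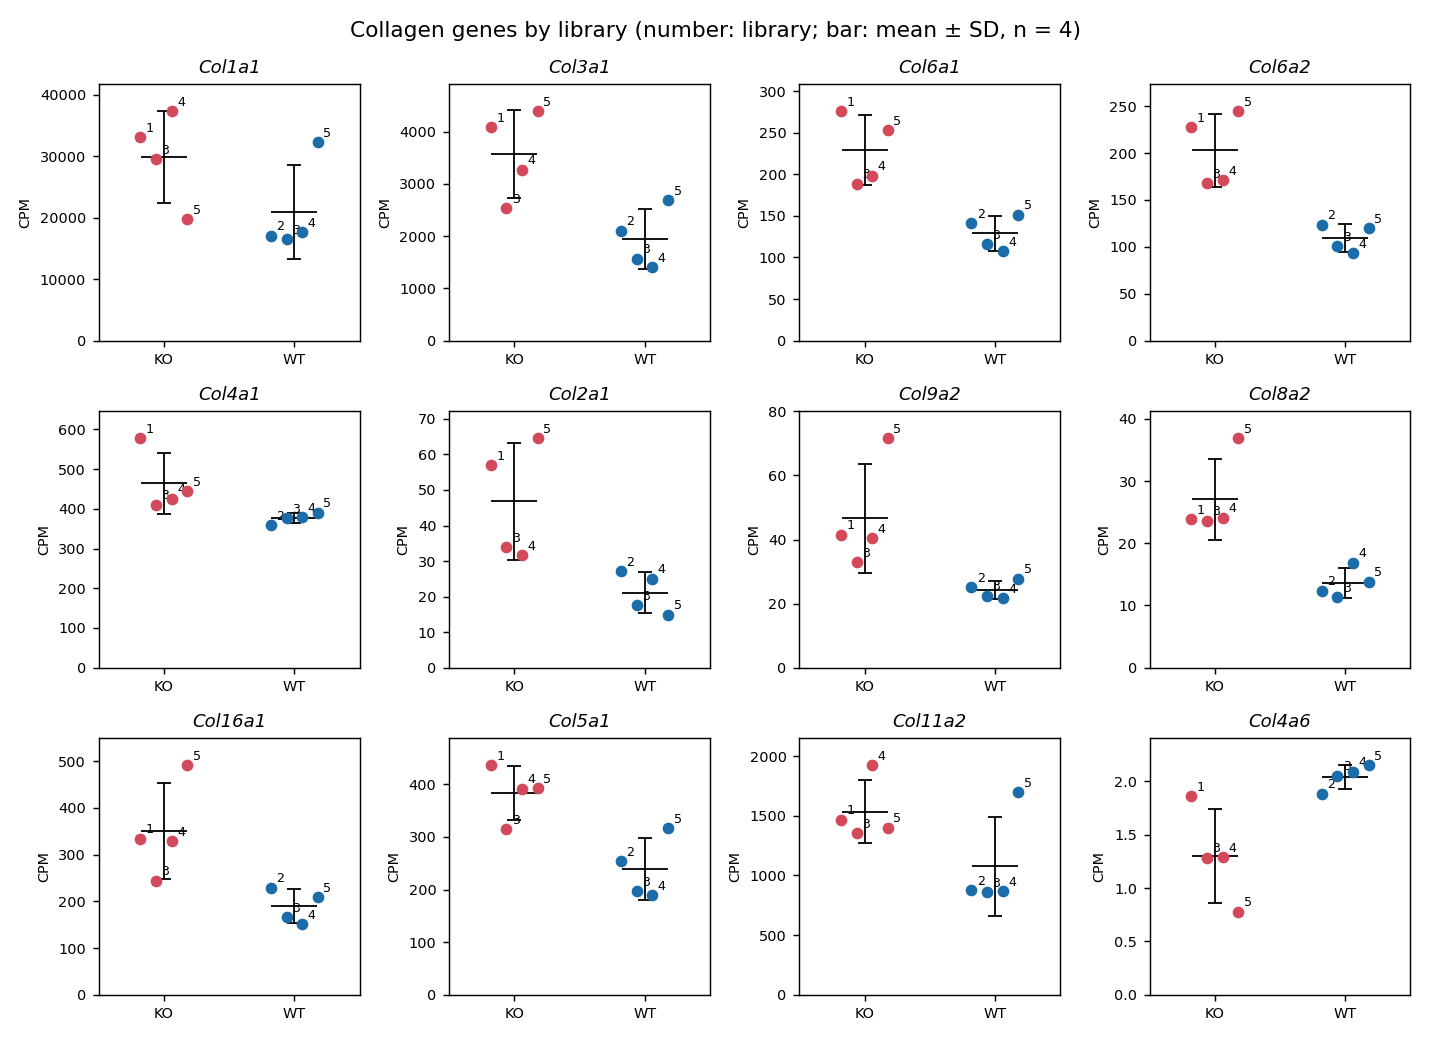
CPM of 12 collagens in each library, numbered as in the text, with KO in red on the left, WT in blue on the right and black bars for the mean and SD (n = 4). WT 5 sits at the KO level for Col1a1 and Col11a2, while the KO and WT points separate for Col6a1, Col6a2, Col2a1, Col9a2, Col8a2 and Col16a1.

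Among the cartilage collagens, 6 of 7 had a positive log2 fold change, 4 were higher at an unadjusted p under 0.05 (57.1%, beside 8.7% of all tested genes), and the median was 0.47. Without KO 1 or without KO 5, 2 were higher at that threshold, beside 7.58% and 7.97% of all tested genes. With Xist as a covariate, 1 was higher, beside 3.05% of all tested genes. Col2a1 (chromosome 15, 97975602 to 98004695), the main fibrillar collagen of cartilage, had 56.9, 33.9, 31.7 and 64.5 CPM in KO, against 27.1, 17.5, 25.02 and 14.9 CPM in WT. KO 1 and KO 5 were well above KO 3 and KO 4, and all were above every WT library. The Col2a1 log2 fold change was 1.14 ± 0.25 SE (unadjusted p = 0.00076, edgeR adjusted p = 0.10), the highest positive value in the family. Col9a2 (chromosome 4, 121039385 to 121055322), a chain of the collagen IX that coats cartilage fibrils, had 41.5, 32.9, 40.4 and 71.6 CPM in KO and 25.2, 22.4, 21.6 and 27.8 CPM in WT. KO 5 was far above the other KO libraries, and the groups did not overlap. For Col9a2 the log2 fold change was 0.94 ± 0.21 SE (unadjusted p = 0.00078, edgeR adjusted p = 0.10). Its partner Col9a3 had 41.3, 33.1, 33.8 and 52.9 CPM in KO and 32.6, 32.8, 30.8 and 20.5 CPM in WT, separated only by a narrow margin, with a log2 fold change of 0.47 ± 0.18 SE, and of 0.31 without KO 5. Its count is uncertain, since Tcfl5, with 13.7% as many reads, overlaps it over 234 bases. Col9a1, the remaining collagen IX chain, showed a log2 fold change of 0.44 ± 0.27 SE, and of 0.68 without WT 5.

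The collagen XI genes, which nucleate fibrils in cartilage and elsewhere, took most of the reads of the cartilage class and, like collagen I, were highest in KO 4 among the KO libraries and in WT 5 among the WT libraries. Col11a2 (chromosome 17, 34039437 to 34066685) had 1467, 1353, 1921 and 1400.5 CPM in KO, against 875, 862, 871 and 1696 CPM in WT. WT 5 was far above the other WT libraries and within the KO range. The Col11a2 log2 fold change was 0.51 ± 0.23 SE (unadjusted p = 0.048, edgeR adjusted p = 0.31), and without WT 5 the log2 fold change was 0.82. Col11a1 had 899, 999, 1259.6 and 738 CPM in KO and 721, 626, 720.2 and 1276 CPM in WT, with a log2 fold change of 0.22 ± 0.23 SE and, without WT 5, of 0.50. Without KO 4 it was 0.073. Col10a1, a marker of hypertrophic cartilage, showed a log2 fold change of -0.38 ± 0.32 SE, but its count is uncertain because Nt5dc1 overlaps it with 905% as many reads. The chondrocyte list (Acan, Sox9 and 8 others) summed to 49.99, 54.2, 58.8 and 60.2 CPM in KO, against 41.7, 38.3, 49.5 and 53.01 CPM in WT. Matn1, Matn3, Cnmd, Snorc and Ucma, which define cartilage, each averaged 0.34 CPM or less in KO and 0.278 CPM or less in WT. Of the 5 tested chondrocyte genes, 4 had a positive and 1 a negative log2 fold change, with a median of 0.23. At an unadjusted p under 0.05, 2 were higher and 0 lower, beside 8.7% and 6.98% of all tested genes. Acan, which had the highest log2 fold change of the list, averaged 4.38 ± 1.17 CPM in KO and 1.90 ± 0.637 CPM in WT (SD, n = 4 each). The part of cartilage cells in the values of these collagens was not tested.

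The basement membrane collagens went in both directions. Of 9 tested genes, 5 had a positive and 4 a negative log2 fold change, with a median of 0.11. At an unadjusted p under 0.05, 3 of them were higher (33.3%) and 2 lower (22.2%), beside 8.7% and 6.98% of all tested genes. The median depended on single libraries: without KO 1 it was -3.2e-06 with 1 gene higher at that threshold, without WT 4 it was 0.017 with 1 higher, and without WT 5 it was 0.22 with 2 higher and 0 lower. The shares of all tested genes higher were then 7.58%, 6.34% and 8.95%. With the GC and length offset the class median was -0.029 and 3 of 9 were positive. Col4a1 (chromosome 8, 11198423 to 11312826) and Col4a2 (chromosome 8, 11312805 to 11449287) encode the ubiquitous collagen IV trimer and are transcribed away from each other from the shared promoter shown above. Their annotated starts overlap by 22 bases. Col4a1 had 578, 410.4, 426 and 444 CPM in KO, against 359, 376, 379 and 391 CPM in WT. Col4a2 had 405, 288, 292 and 326 CPM in KO and 230.3, 240.4, 222 and 256 CPM in WT. In both genes KO 1 was much the highest and KO 3 the lowest of the KO libraries, and the groups did not overlap. The Col4a1 log2 fold change was 0.30 ± 0.13 SE (unadjusted p = 0.044, edgeR adjusted p = 0.31), and without KO 1 it was 0.18. For Col4a2 the log2 fold change was 0.47 ± 0.13 SE (unadjusted p = 0.0048, edgeR adjusted p = 0.17).

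The other collagen IV genes form the networks of specialised epithelia and had low levels here. Col4a5 and Col4a6 are X-linked neighbours transcribed apart, with 1308 bases between them. Col4a6 (chromosome X, 141165403 to 141474076) had 1.86, 1.28, 1.29 and 0.78 CPM in KO, against 1.88, 2.05, 2.09 and 2.15 CPM in WT. It was the only tested collagen in which every KO library was below every WT library, and KO 1 was only just below WT 2. These values rest on 34, 28, 28 and 15 reads in KO, against 34, 43, 44 and 38 reads in WT. The Col4a6 log2 fold change was -0.65 ± 0.28 SE (unadjusted p = 0.038, edgeR adjusted p = 0.30). Col4a5 averaged 19.8 ± 2.05 CPM in KO and 23.3 ± 4.33 CPM in WT (SD, n = 4 each), in libraries that overlapped, with a log2 fold change of -0.23 ± 0.14 SE. WT 5 was the highest of them, and without it the value was -0.096. Col4a3 had 7, 7, 19 and 2 reads in KO, against 22, 18, 18 and 25 reads in WT, so its log2 fold change of -1.33 ± 0.48 SE rests on few reads, and C430014B12Rik overlaps it with 53.4% as many. Col4a4, 71 bases away, showed a log2 fold change of -0.19 ± 0.55 SE, which turned to 0.15 without KO 5 and 0.12 without WT 5. It too had few reads, 14, 25, 9 and 2 in KO, against 8, 13, 13 and 20 in WT.

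Col7a1, Col15a1 and Col18a1 act at the border of basement membranes. Col7a1, which forms the anchoring fibrils under stratified epithelia, had 245, 177, 205 and 188 CPM in KO and 189, 183, 153 and 227 CPM in WT, with a log2 fold change of 0.11 ± 0.15 SE, and of 0.013 without KO 1. Col15a1, of basement membranes in vessels and muscle, had 61.97, 45.9, 52.99 and 51.4 CPM in KO and 42.6, 44.6, 39.8 and 46.9 CPM in WT. The Col15a1 log2 fold change was 0.29 ± 0.11 SE (unadjusted p = 0.028, edgeR adjusted p = 0.27). Col18a1, the source of the fragment endostatin, had 159, 94.8, 98.9 and 119.7 CPM in KO and 102, 107, 89.7 and 120.4 CPM in WT, with a log2 fold change of 0.18 ± 0.17 SE. The directions of Col7a1 and Col18a1 did not hold under the GC and length offset, where they were -0.029 and -0.0026, and without KO 1 the Col18a1 value was -3.2e-06. The endothelial list summed to 453, 376, 371 and 422 CPM in KO, against 363, 358, 370.4 and 376 CPM in WT, and overlapped. It was highest in KO 1, as Col4a1 and Col4a2 were. Of its 8 genes, 5 had a positive log2 fold change, beside 53.1% of all tested genes, and Pecam1, Kdr and Tek a negative one. Plvap had the highest, 0.48, but Gtpbp3 overlaps it with 33.8% as many reads. The part of vessels in the values of these collagens was not tested. The oral keratinocyte list, of a stratified epithelium that rests on a basement membrane, summed to 616, 529, 556 and 778 CPM in KO, against 1270.5, 1229, 657 and 997 CPM in WT. Its 8 members were each lower in KO at an unadjusted p under 0.05, where 6.98% of all tested genes were. Of these members, 2 were past the adjusted threshold in edgeR, beside 0.0309% of all tested genes. The part of this list in the collagen IV values was not tested.

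All 5 tested FACIT collagens had a positive log2 fold change, though Col20a1 was close to 0 and turned to -0.17 without WT 4 and -0.0057 with library totals. Of the class, 3 were higher at an unadjusted p under 0.05 (60%, beside 8.7% of all tested genes), and the median was 0.56. Col16a1 (chromosome 4, 130047840 to 130099283), a minor collagen found with fibrils and at cell surfaces, had 334, 245, 329 and 491 CPM in KO, against 229.7, 166, 152 and 209 CPM in WT. The groups did not overlap, KO 5 was the highest, and KO 3 was near WT 2. The Col16a1 log2 fold change was 0.89 ± 0.21 SE (unadjusted p = 0.0011, edgeR adjusted p = 0.10). Col22a1, known from tissue junctions such as those of muscle and tendon, had 13.9, 12.3, 9.81 and 16.5 CPM in KO and 9.30, 7.30, 8.83 and 6.16 CPM in WT, without overlap. The Col22a1 log2 fold change was 0.73 ± 0.19 SE (unadjusted p = 0.0021, edgeR adjusted p = 0.13). Col12a1, a FACIT of dense connective tissue and dental ligament, had 559, 479, 561 and 462 CPM in KO and 377, 263, 280.2 and 481 CPM in WT, with WT 5 within the KO range. For Col12a1 the log2 fold change was 0.56 ± 0.19 SE (unadjusted p = 0.012, edgeR adjusted p = 0.21). Col14a1, its close relative, showed a log2 fold change of 0.15 ± 0.11 SE, and of 0.071 without KO 3. Col20a1 showed one of 0.050 ± 0.27 SE, a count that is uncertain because 9230112E08Rik overlaps it with 340.5% as many reads. Col19a1 was below the filter, with 2, 0, 2 and 0 reads in KO, against 0, 0, 0 and 6 reads in WT.

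Of the 7 other collagens, 5 had a positive log2 fold change, and the median was 0.39. At an unadjusted p under 0.05, 3 were higher (42.9%) and 1 was lower (14.3%), beside 8.7% and 6.98% of all tested genes. Col8a2 (chromosome 4, 126286793 to 126314330) and Col8a1 encode collagen VIII, a short collagen that forms lattices, and went in opposite directions. Col8a2 had 23.8, 23.6, 24.1 and 36.9 CPM in KO, against 12.3, 11.4, 16.9 and 13.8 CPM in WT. All KO libraries were above all WT libraries, and KO 5 stood above the others. The Col8a2 log2 fold change was 0.99 ± 0.18 SE (unadjusted p = 0.00012, edgeR adjusted p = 0.078). Col8a1 had 17.1, 16.2, 15.4 and 11.4 CPM in KO and 20.2, 15.8, 17.3 and 25.04 CPM in WT, which overlapped. The Col8a1 log2 fold change was -0.38 ± 0.17 SE (unadjusted p = 0.046, edgeR adjusted p = 0.31), and without WT 5 it was -0.24. Col26a1, a secreted collagen first found in reproductive tissue, had 17.7, 15.2, 11.6 and 21.3 CPM in KO and 8.64, 7.64, 7.69 and 12.1 CPM in WT, where only WT 5 reached the lowest KO library, KO 4. For Col26a1 the log2 fold change was 0.87 ± 0.21 SE (unadjusted p = 0.0012, edgeR adjusted p = 0.11). Col23a1, a transmembrane collagen, had 71.8, 75.8, 69.8 and 71.4 CPM in KO and 49.8, 51.5, 55.6 and 63.1 CPM in WT, without overlap. The Col23a1 log2 fold change was 0.39 ± 0.10 SE (unadjusted p = 0.0027, edgeR adjusted p = 0.14). The transmembrane collagens Col13a1 and Col25a1 showed log2 fold changes of 0.12 ± 0.24 SE and -0.26 ± 0.32 SE, and Col28a1 showed one of 0.53 ± 0.25 SE. Without KO 5 the Col13a1 value turned to -0.15, and without WT 5 the Col25a1 value turned to 0.17.

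Chains that share a trimer were compared per length, as a ratio of RPKM within each library, which is described with no test. The ratio of Col1a1 to Col1a2, which together form the usual collagen I trimer, was 3.03, 2.98, 2.98 and 2.01 in KO 1, 3, 4 and 5, against 2.59, 2.74, 2.70 and 2.79 in WT 2, 3, 4 and 5. KO 5 had the lowest ratio, and the other KO libraries were above every WT library. The ratio of Col4a1 to Col4a2 was 1.27, 1.27, 1.29 and 1.21 in KO, against 1.38, 1.39, 1.52 and 1.35 in WT. Every KO library was below every WT library in that ratio. The ratio of Col6a1 to Col6a2 was 2.30, 2.14, 2.20 and 1.97 in KO, against 2.18, 2.20, 2.19 and 2.40 in WT, and the groups overlapped.

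Genes that modify, fold, cut and cross-link collagen mostly had positive log2 fold changes as well, beside 53.1% of all tested genes. In edgeR's main fit, 0 in 5 lists were past the adjusted threshold. That depended on the fit: of the genes named below, Loxl1 and Itga11 passed in 4 of the 23 alternatives run, and Pcolce2, Loxl2 and Adgrg1 in 0. Of 15 hydroxylases and glycosyltransferases of the endoplasmic reticulum, 8 were higher (53.3%) and 1 lower (6.67%) at an unadjusted p under 0.05, beside 8.7% and 6.98% of all tested genes. Their median log2 fold change was 0.30. P3h1, which hydroxylates proline in collagen I, had 139, 126, 154 and 196 CPM in KO and 88.9, 75.8, 80.6 and 120.2 CPM in WT, with a log2 fold change of 0.75 ± 0.17 SE (edgeR adjusted p = 0.10). P4ha3, a prolyl 4-hydroxylase subunit, showed a log2 fold change of 0.64 ± 0.15 SE. P3h2, the prolyl hydroxylase known for collagen IV, went the other way, with 57.2, 68.1, 59.8 and 51.6 CPM in KO and 100.2, 101, 88.9 and 70.1 CPM in WT and a log2 fold change of -0.61 ± 0.14 SE (edgeR adjusted p = 0.10). Its count is uncertain, since Gm4524 overlaps it with 16.8% as many reads.

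Of 14 genes of collagen chaperones and export, 5 were higher (35.7%) and 1 lower (7.14%) at that threshold, beside 8.7% and 6.98% of all tested genes, with a median of 0.27. Serpinh1, the collagen chaperone HSP47, had 1255, 1286, 1512 and 2109 CPM in KO and 1038, 1012, 948 and 1261 CPM in WT, with a log2 fold change of 0.53 ± 0.19 SE. KO 5 was well above the other libraries, and without it the value was 0.34. Creb3l1, a transcription factor that drives collagen secretion in bone, showed a log2 fold change of 0.60 ± 0.15 SE. Fkbp10, a chaperone for collagen I, showed one of 0.70 ± 0.17 SE, though Nt5c3b overlaps it with 14.8% as many reads. For propeptide processing, 2 of 8 tested genes (25%) were higher and 0 lower, beside the same shares of all tested genes, with a median of 0.26. Pcolce, which speeds the removal of the C-propeptide, had 534, 486, 652 and 731 CPM in KO and 316, 298, 306 and 574 CPM in WT, with WT 5 again at the KO level and a log2 fold change of 0.68 ± 0.22 SE. Pcolce2, its relative, showed a log2 fold change of 0.51 ± 0.20 SE and Adamts14, an N-propeptidase, of 0.38 ± 0.18 SE, which was 0.59 without WT 5.

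All 5 cross-linking genes had a positive log2 fold change and 3 were higher at an unadjusted p under 0.05, beside 53.1% and 8.7% of all tested genes. Loxl1, a lysyl oxidase also known for elastin, had 31.2, 23.5, 24.5 and 32.7 CPM in KO and 17.7, 16.5, 13.2 and 15.03 CPM in WT, which did not overlap. The Loxl1 log2 fold change was 0.84 ± 0.14 SE (unadjusted p = 8.8e-05, edgeR adjusted p = 0.073). Loxl2 showed a log2 fold change of 0.25 ± 0.11 SE and Loxl3 of 0.60 ± 0.21 SE, the Loxl3 count being uncertain because Htra2 overlaps it with 35.2% as many reads. Of 11 tested collagen receptors and uptake genes, 3 were higher (27.3%) and 1 lower (9.09%), beside 8.7% and 6.98% of all tested genes. The median of 0.0095 was close to that of all tested genes. Itga11, the integrin by which fibroblasts hold fibrillar collagen, had 48.9, 45.2, 42.5 and 44.5 CPM in KO and 32.2, 24.8, 29.00 and 32.9 CPM in WT. The Itga11 log2 fold change was 0.61 ± 0.12 SE (unadjusted p = 0.00021, edgeR adjusted p = 0.079). Itga10, a collagen-binding integrin of chondrocytes, showed a log2 fold change of 0.57 ± 0.19 SE and Adgrg1, a receptor for collagen III, of 0.30 ± 0.12 SE.

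Marker lists of the collagen-making cells differed between libraries in more than 1 pattern. The odontoblast list (Dspp, Phex and 4 others) summed to 12337, 16040.1, 20409.9 and 9891 CPM in KO, against 11825, 11614, 14094 and 23718 CPM in WT, and, as for Col1a1, KO 4 was the highest and KO 5 the lowest KO library and WT 5 the highest WT library. KO 1 differed, being below KO 3 in this sum but above KO 3 for Col1a1. Dspp made up most of the odontoblast sum. Smpd3, a neutral sphingomyelinase in the same list, had 67.9, 68.7, 62.8 and 68.7 CPM in KO, against 39.9, 36.5, 45.5 and 39.4 CPM in WT, without overlap. It passed the adjusted threshold (log2 fold change 0.73 ± 0.10 SE, edgeR adjusted p = 0.040). Its count is uncertain, though, since Prmt7, with 50.1% as many reads, overlaps it over 247 bases. Smpd3 did not stand for its list: of the 5 tested odontoblast genes, 2 had a positive and 3 a negative log2 fold change, with a median of -0.034. The osteoblast and cementoblast list summed to 4731, 3908, 4629.7 and 6399 CPM in KO, against 3124, 3227, 3382 and 3603 CPM in WT. The groups did not overlap, and KO 5 was the highest, as for Col3a1. For Col1a1 and Col1a2, in contrast, KO 5 was the lowest KO library. Of the 8 genes in this list, 8 had a positive log2 fold change, beside 53.1% of all tested genes. At an unadjusted p under 0.05, 6 of them were higher, beside 8.7% of all tested genes. The fibroblast and dental mesenchyme list summed to 2384, 2236, 2587 and 2569 CPM in KO, against 2226, 1707, 1717 and 2303 CPM in WT, and 7 of its 12 genes were higher at that threshold (58.3%, beside 8.7% of all tested genes). Ameloblast markers summed to 77319.7, 77622, 59716 and 81170.2 CPM in KO, against 70173, 79794, 97696 and 53399 CPM in WT, lowest in KO 4 among KO and in WT 5 among WT, the libraries in which collagen I was highest in each group. The mural list summed to 562, 523, 536 and 473 CPM in KO, against 563, 546, 586 and 589.5 CPM in WT, and overlapped. The part of these cell types in the collagen values was not tested.

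**Figure D4:**
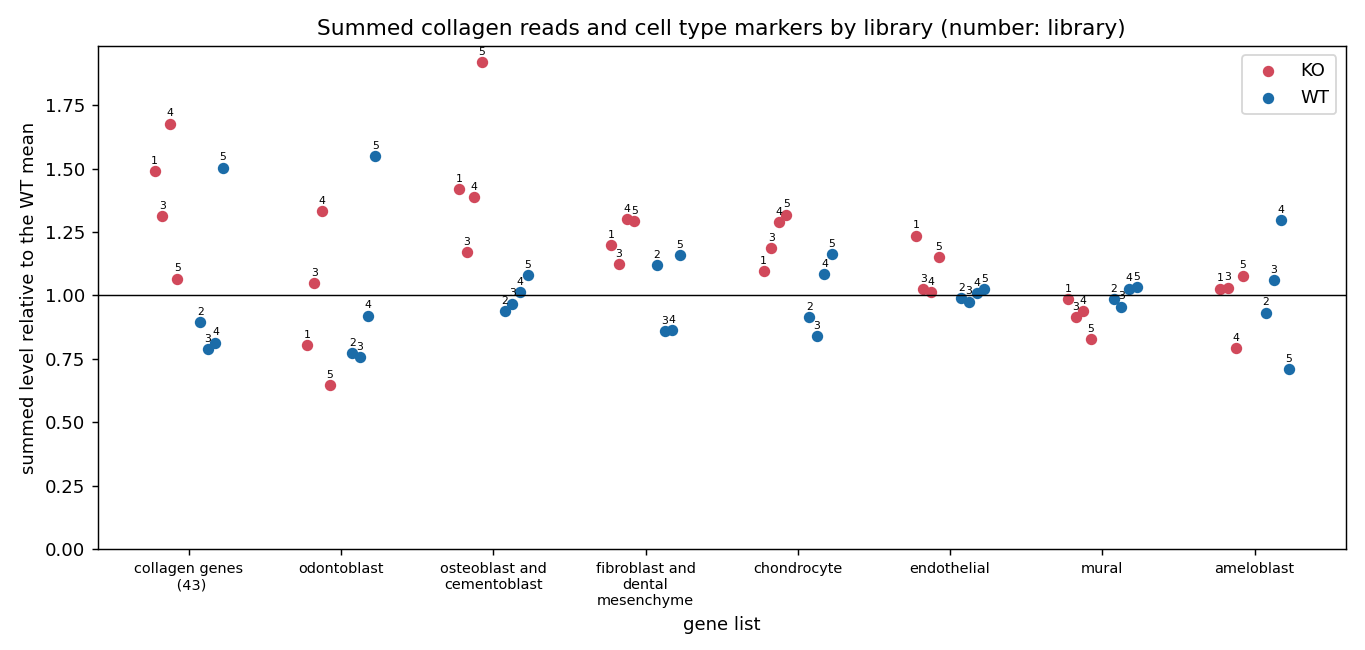
Summed level of the 43 collagens (share of reads) and of 7 marker lists (summed CPM) in each library relative to the mean of the 4 WT libraries, KO in red and WT in blue, with library numbers. The odontoblast list shares the high WT 5 and KO 4 of the collagens but not their high KO 1 (1.49 for the collagens, 0.81 for the list). The osteoblast and cementoblast list is higher in every KO library than in every WT library.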

How the data were processed

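RNA of first molars without pulp was sequenced in 4 KO and 4 WT libraries after polyA capture, per the labels' protocols. The authors deposited read counts per Ensembl gene, whole numbers that were not normalised, with gene lengths and coordinates. The submitters' processing notes name CASAVA and mm39, while the coordinates are those of GRCm38: of 54532 gene IDs, 54409 are in GENCODE M21, and 98.8% of these have the same start. The aligner, the counter and its strandedness were not given in the sources used here. Overlapping genes may therefore share reads. The percentages given for overlapping genes count all their reads, not only those within the shared bases.

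Libraries held 17084475 to 21887462 reads. From the deposited counts, 16205 genes passed filterByExpr (minimum count 10, minimum total 15) and were scaled by TMM. KO was tested against WT with edgeR 4.0.16 in R 4.3.3 (quasi-likelihood, robust, two-sided), with Benjamini-Hochberg adjustment over all 16205 genes. SE is the size of the log2 fold change over the root of F. The biological coefficient of variation was 17.8%. CPM and RPKM were computed here, RPKM with the authors' gene lengths.

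The labels' replicate numbers 3, 4 and 5 occur in both groups, but same-numbered libraries did not deviate together, so no block was used. Alternatives were library totals, no filter on low counts or a filter of 1 CPM in 4 libraries, DESeq2 1.42.0, limma 3.58.1 (voom with quality weights), a block on replicate number, Xist (an RNA of the inactive X chromosome) as covariate, an offset for GC content and length (mgcv 1.9.3) and leaving out libraries.

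Members, gene lists and tests were chosen with earlier results of these data known. The text names a fixed set of collagens, up to 4 tested members with the smallest unadjusted p in each class, members below the filter and the 3 genes with the smallest p of each pathway list. The remaining collagens and the markers named were added after their values were seen.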

Additional observations from a re-analysis of the deposited data

Results flagged for a closer look

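In 13 of 96 sets of 4 libraries examined, 1 library lay far from the other 3 by Dixon's criterion. Chance alone meets it in about 1 of 20 sets when sets are independent. These sets were genes measured in the same libraries, many of them named for a small p, so their number cannot be set against chance. In 11 of the 13 that library was WT 5, and 6 of these were collagens. Of these, Col1a1 was at 32304 CPM in WT 5, beside 16449 to 17633 CPM in the other WT libraries. Col1a2 was at 21929.7 CPM beside 11380.5 to 12469 CPM, and Col5a2 at 1764 CPM beside 1085 to 1196 CPM. Col11a1 was at 1276 CPM beside 626 to 721 CPM, and Col11a2 at 1696 CPM beside 862 to 875 CPM. Col9a3 was low in WT 5, at 20.5 CPM beside 30.8 to 32.8 CPM.

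Among the genes of collagen processing, WT 5 was high for Fkbp10 (207 CPM), Pcolce (574 CPM), Adamts14 (58.6 CPM) and Loxl3 (50.6 CPM), and low for Pcolce2 (5.14 CPM). The other WT libraries lay at 136 to 145, 298 to 316, 35.99 to 36.6, 25.3 to 28.9 and 6.97 to 7.22 CPM in the same order of genes. In KO, Col6a3 was at 183 CPM in KO 1, beside 129 to 135 CPM in the other KO libraries, and Col8a2 was at 36.9 CPM in KO 5, beside 23.6 to 24.1 CPM.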

How the results depend on the processing

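The median log2 fold change of the tested collagens stayed positive in all 23 alternatives run, between 0.24 and 0.53, and the count of collagens higher at an unadjusted p under 0.05 ran from 12 to 26. The share of all tested genes higher at that threshold ran from 3.05% with Xist as covariate, where 13 collagens were, to 13.1% with voom, where 26 were, and was 4.2% with the block, where 12 were. Counts of adjusted calls were less stable. The 5 genes called over the whole table became 2 with library totals, 241 with no low-count filter, 419 with DESeq2, 1065 with limma voom, 1 with Xist as covariate, 23 with the GC and length offset, 11 without KO 1 and KO 5, and 0 to 55 with 1 library left out. Collagens called were 10 with no low-count filter, 12 with DESeq2, 18 with voom and 0 to 3 with 1 library left out, the 3 being Col6a2, Col8a2 and Col9a2 without KO 5. The 3 collagens lower at an unadjusted p under 0.05 became 0 with the Xist covariate and 0 to 3 with 1 library left out. Without KO 1 and KO 5 together, Col2a1 was at 0.63, Col3a1 at 0.58 and Col9a2 at 0.59. The cause was not tested.

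The replicate block could be fitted to the 6 libraries with shared numbers. Same-numbered libraries had correlations of -0.14, -0.092 and -0.12 for numbers 3, 4 and 5, and each KO library correlated best with a WT library of another number. With the replicate block, 1 gene was called, 1 with the GC offset and the block, and 1 in the same 6 libraries unblocked, a fit added after seeing the data. With the block 1 collagen was lower, as in the unblocked fit. Without KO 3, without KO 4 or without KO 5, 1 was lower, and without WT 5, 0.

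Of the 41 tested collagens, 9 changed sign in at least 1 alternative: Col4a4, Col5a3, Col6a4, Col7a1, Col13a1, Col18a1, Col20a1, Col25a1 and Col27a1. Col27a1 was negative in 9 of the 23 alternatives, down to -0.17, and was at -0.026 with library totals and -0.028 with the block. With voom Col20a1 was at -0.062, Col13a1 at -0.25 and Col25a1 at 0.27. Col5a3 was at -0.013 with the GC offset and block, and Col6a4 at 0.028 without KO 5. Col18a1 was at -0.012 with the block, -0.0026 with the GC offset, -0.21 with both, -0.015 unblocked, -0.11 without KO 1 and KO 5 and -3.2e-06 without KO 1, and up to 0.26 with another library left out. Col7a1 was at -0.029 with the GC offset and -0.14 with both. Col4a4 ran from -0.72 to 0.15 with 1 library left out, and was at 0.15 without KO 5, 0.12 without WT 5 and 0.16 without KO 1 and KO 5. Without division by length, the chain ratios averaged 1.45 in KO and 1.43 in WT for Col1a1 to Col1a2, 1.42 and 1.59 for Col4a1 to Col4a2, and 1.13 and 1.18 for Col6a1 to Col6a2. Depth limits Col4a3, Col6a6 and Col19a1, which had few reads. It also limits Col4a4, Col4a6, Col6a4, Col9a1, Col10a1 and Col20a1, which had at most 69 reads in any library.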

Other observations

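Some collagen genes lie beside each other in the genome. Of the pairs described above, the log2 fold changes were 0.83 for Col6a1 and 0.89 for Col6a2, 0.30 for Col4a1 and 0.47 for Col4a2, and -0.23 for Col4a5 and -0.65 for Col4a6. Col3a1 and Col5a2 are 24614 bases apart, Col4a3 and Col4a4 71, Col9a1 and Col19a1 9205, Col6a4 and Col6a5 28810, and Col6a5 and Col6a6 27917. The log2 fold changes were 0.88 for Col3a1 and 0.40 for Col5a2, -1.33 for Col4a3 and -0.19 for Col4a4, and -0.014 for Col6a4 and 0.47 for Col6a5, and no difference within a pair was tested. Macrophage markers summed to 110.4, 115, 113 and 118 CPM in KO 1, 3, 4 and 5, against 85.7, 81.7, 90.1 and 99.8 CPM in WT 2, 3, 4 and 5, without overlap. The osteoclast list summed to 464, 370.1, 334 and 645 CPM in KO, against 426, 303, 305 and 179 CPM in WT, lowest in WT 5. Schwann cell markers summed to 90.8, 119.8, 94.6 and 109.9 CPM in KO, against 73.9, 88.9, 100.1 and 74.3 CPM in WT, and skeletal muscle markers to 107, 87.04, 49.3 and 63.7 CPM in KO, against 73.1, 82.7, 97.98 and 61.7 CPM in WT. General epithelial markers summed to 13104, 11932, 12347 and 21222 CPM in KO, against 15657, 17380.5, 12725 and 14386 CPM in WT. Col17a1, the collagen left out by the rule, had 995, 903, 854 and 749 CPM in KO, against 1061, 1037, 808 and 1027 CPM in WT, with a log2 fold change of -0.17 ± 0.14 SE.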
